A study of Mus musculus with 6 samples.

Results

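Notch signalling passes between neighbouring cells. Ligands of the Delta-like (Dll) and Jagged (Jag) families on one cell bind a Notch receptor on the next, the receptor is cut by a metalloprotease and then by gamma-secretase, and the freed intracellular part joins the DNA-binding protein RBPJ and Mastermind coactivators to switch on genes such as Hes1 and Nrarp. In the intestinal crypt, Dll1 and Dll4 on secretory cells signal through Notch1 and Notch2 to their neighbours, which keeps stem cells in place and restrains Atoh1, which drives cells into the secretory lineage.

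Here 10 genes of this pathway were described, chosen by symbol: the ligands Dll1, Dll4, Jag1 and Jag2, the receptors Notch1 and Notch2, and the targets or modifiers Hes1, Nrarp, Lfng and Dtx1. All 10 were among the 19938 genes measured, each by 1 probe set named for that gene alone. The signals came from total RNA of isolated intestinal crypts of 6 mice on Affymetrix mouse gene arrays, 1 array each. The control group held 3 mice and the YAP Tg group 3 mice whose transgene, by the series title, is YAP-S127A, an activated form of the Hippo pathway's coactivator YAP, under Villin-rtTA, which acts in intestinal epithelium when doxycycline is given. Doxycycline was given for 2 days by the series' design text. The sources used here do not give the strain, age or sex of the mice, the transgenes of the controls or whether the controls received the drug, so an effect of the drug or of rtTA and one of YAP cannot be told apart.

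Values are log2 signals as deposited, on which a step of 1 is a doubling. Median signals of all genes were 6.74 to 6.79 on every array. The upper quartiles were 8.67, 8.69 and 8.60 in control mice 1, 2 and 3. In YAP Tg mice 1, 2 and 3 they were 8.45, 8.66 and 8.49, so equal medians do not mean equal distributions. Control arrays were alike (Pearson's r across genes 0.996 to 0.997), and YAP Tg arrays varied more (0.978 to 0.989); genes are not independent replicates. Epithelial markers were high in both groups, with Krt8 at a mean of 13.40 in control and 13.68 in YAP Tg crypts and Vil1 at 12.41 and 12.51. Of the 10 epithelial markers 4 rose (Krt18 by 1.53, Cdh1 by 0.45, Cldn7 by 0.42 and Krt8 by 0.28; 6 without YAP Tg mouse 2, 2 without YAP Tg mouse 1 or control mouse 2, and 1 with any other array left out) and 1 fell, the transcription factor Cdx1 (-0.97; 0 without control mouse 3), by the test described below. The YAP target Ccn1 was at 6.16 to 6.22 in control and 10.60 to 10.80 in YAP Tg crypts, while the probe set of Yap1 stood at 9.30 to 9.48 and 8.98 to 9.27; the sources used here do not say whether it reads the transgene. Signals of the 10 genes lay between 6.11 and 8.92. On every array they were above the median of the low-numbered probe sets that are presumably controls. Those medians were 4.97 to 4.99 on control and 5.03 to 5.33 on YAP Tg arrays.

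After 2 days of YAP-S127A both Delta-like ligands were lower, the Jagged ligands had moved in opposite directions and the receptors had not passed the test. Dll4, Jag1 and Nrarp fell by more than 1 on the log2 scale, Dll1 fell less, and Jag2, Lfng and Dtx1 rose. Of the 10 genes 3 rose and 4 fell at a limma p below 0.05 after adjustment (Benjamini and Hochberg over all genes), where 7.5% of all genes rose, 6.7% fell and 14.2% were called in either direction. Without control mouse 1 or 2 just Dll4 and Dtx1 were called (2 of 10, against 5.23% and 5.81% of all genes). Without YAP Tg mouse 3 the 4 lower genes became 2, Dll4 and Nrarp, while the lower genes among all 19938 went from 1336 to 811. The groups did not overlap for 8 of the 10, with 3 higher and 5 lower, against 33.6% of all genes, 16.5% higher and 17.0% lower. The median log2 difference, YAP Tg minus control, was -0.36 over the 10 genes and 0.03 over all genes, and the median size of the difference was 0.62 against 0.17. In these bulk samples fewer cells of a type and less RNA per cell cannot be told apart.

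**Figure D1:**
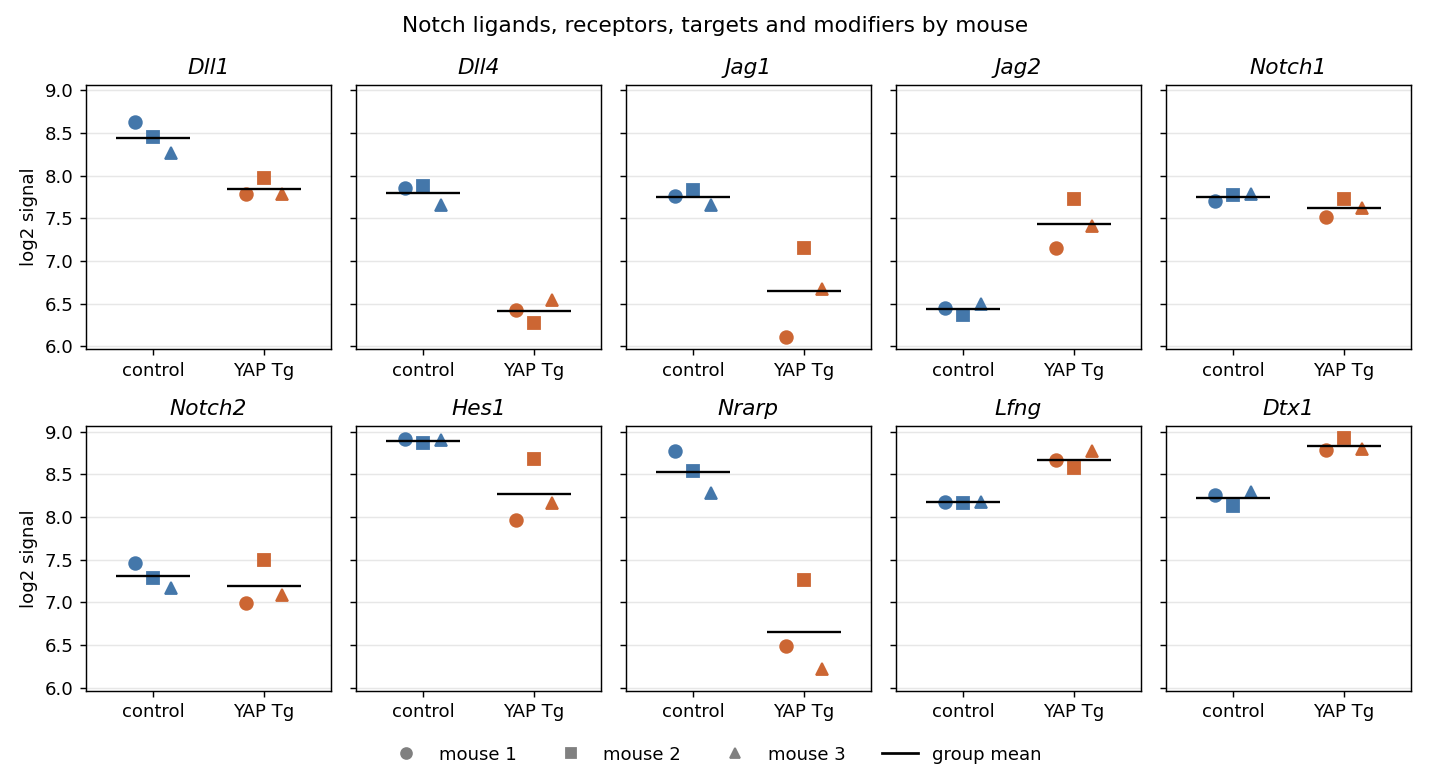
Log2 signal (vertical axis, same scale in every panel) of the 10 Notch genes in 3 control and 3 YAP Tg mice; each marker is 1 mouse and the line is the group mean. Dll4 lies at 7.66 to 7.88 in control and 6.27 to 6.54 in YAP Tg mice, and Jag2 at 6.37 to 6.50 and 7.15 to 7.73, while the groups overlap for Notch1 and Notch2.

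Dll4, a Delta-like ligand that activates Notch1 and Notch2 in the crypt, read 7.86, 7.88 and 7.66 in control mice 1, 2 and 3 and 6.43, 6.27 and 6.54 in YAP Tg mice 1, 2 and 3. All YAP Tg values lay below all control values, with a gap of 1.12 between the groups. The difference of -1.39 (SE 0.10, limma's adjusted p = 0.00106) is 2.62-fold lower, from 7.80 ± 0.12 (SD, n = 3) to 6.41 ± 0.14. The call stood under each of the 16 alternative settings tried (adjusted p 0.00054 to 0.0163), though the looser threshold of 0.10 could not lose it.

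Dll1, the other crypt Delta-like ligand, read 8.63, 8.45 and 8.27 in control mice and 7.78, 7.98 and 7.78 in YAP Tg mice. The groups did not overlap, but the gap of 0.29 was smaller than the spread within the controls, 0.36. Dll1 changed by -0.60 (SE 0.12, limma's adjusted p = 0.0208), or 1.52-fold lower. Dll1 did not pass without control mouse 1 (adjusted p = 0.0769), control mouse 2 (0.0898), YAP Tg mouse 1 (0.0626) or YAP Tg mouse 3 (0.0742), and ranged from 0.0104 to 0.0898 over all settings.

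Jag1, a Jagged ligand also used by vessels and smooth muscle, read 7.77, 7.84 and 7.65 in control mice and 6.11, 7.16 and 6.67 in YAP Tg mice. Controls were tight, and YAP Tg mice spread over 1.05, with mouse 2 nearest to the controls and mouse 1 farthest from them. The change was -1.11 (SE 0.25, limma's adjusted p = 0.0361), from 7.75 ± 0.09 to 6.65 ± 0.53 (SD, n = 3), or 2.16-fold lower. Its call was lost without control mouse 1 (adjusted p = 0.135), control mouse 2 (0.140), control mouse 3 (0.117) or YAP Tg mouse 3 (0.115), and its adjusted p ran from 0.00404 to 0.140 over all settings.

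Jag2, the second Jagged ligand, went the other way. It read 6.45, 6.37 and 6.50 in control mice and 7.15, 7.73 and 7.41 in YAP Tg mice, with a gap of 0.66 between the groups. Jag2 rose by 0.99 (SE 0.15, limma's adjusted p = 0.00938), or 1.98-fold, from 6.44 ± 0.06 to 7.43 ± 0.29 (SD, n = 3). The adjusted p was 0.0533 without control mouse 1 and 0.0544 without control mouse 2, within a range of 0.00182 to 0.0544 over all settings.

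The ligand families were then set side by side within each mouse, as differences from the control mean, since signals of different probe sets cannot be ranked. The mean of Dll1 and Dll4 stood at -1.02, -1.0 and -0.96 in YAP Tg mice 1, 2 and 3. These near-equal means join opposite orders, since mouse 2 had the smallest fall of Dll1 (-0.47) and the largest fall of Dll4 (-1.53). Dll1 minus Dll4 was 0.71, 1.06 and 0.59 in YAP Tg mice 1, 2 and 3 and -0.08 to 0.12 in controls. The mean of Jag1 and Jag2 stood at -0.47, 0.35 and -0.06, which has no common direction. Dll minus Jag was therefore -0.55, -1.34 and -0.90 in the YAP Tg mice and -0.14 to 0.10 in the controls. Jag2 minus Jag1, within the Jagged family, was 2.36, 1.88 and 2.04 in YAP Tg mice 1, 2 and 3 and -0.15 to 0.15 in controls. Jag2 minus Dll4, across the families, was 2.09, 2.82 and 2.22 and -0.15 to 0.20. Both contrasts with Jag2 set the ligand that rose against one that fell, and were picked with the directions known. Jag1 went the other way against Dll1, with the larger fall in each YAP Tg mouse (Jag1 -1.65, -0.60 and -1.08, Dll1 -0.66, -0.47 and -0.67). Against Dll4 (-1.38, -1.53 and -1.26) Jag1 had no common order. These family values are a description with no test.

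**Figure D2:**
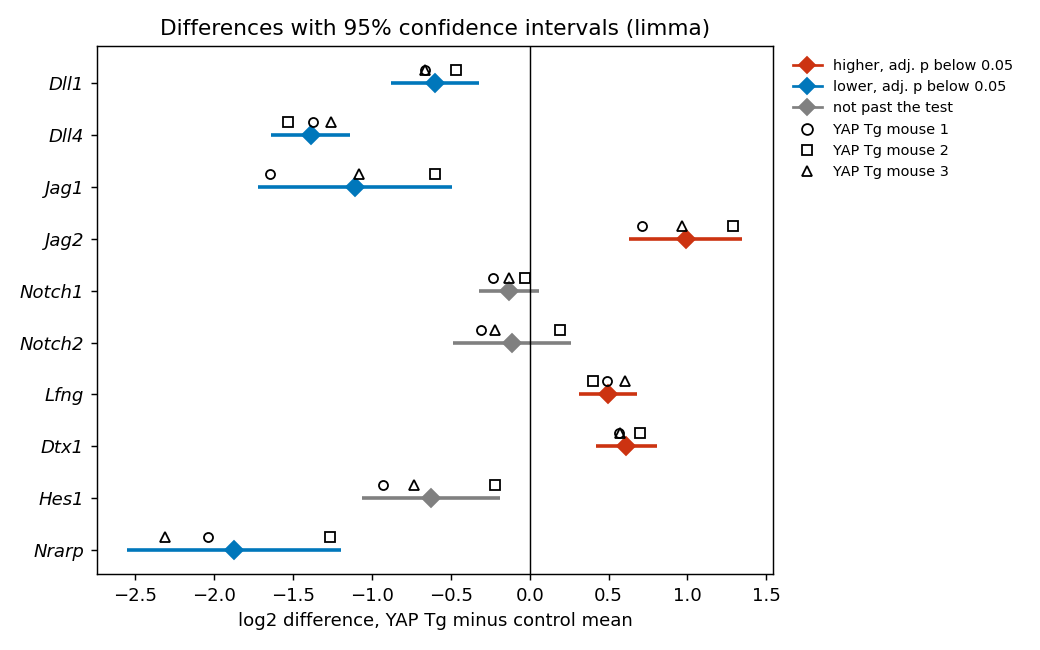
Log2 difference of each Notch gene (horizontal axis, YAP Tg minus control mean) with its 95% confidence interval from limma (filled diamonds and bars; red higher, blue lower, grey not past the test) and the 3 YAP Tg mice as open markers. Intervals of Dll1, Dll4, Jag1 and Nrarp lie below 0 and those of Jag2, Lfng and Dtx1 above it; Hes1 spans -1.06 to -0.19 and did not pass the adjusted test.

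Both receptors overlapped between the groups. Notch1 read 7.70, 7.77 and 7.79 in control mice and 7.52, 7.72 and 7.62 in YAP Tg mice, a difference of -0.13 with a 95% interval of -0.32 to 0.06 (limma's adjusted p = 0.322). Notch2 read 7.46, 7.29 and 7.17 in control mice and 6.995, 7.50 and 7.08 in YAP Tg mice, a difference of -0.11 with an interval of -0.48 to 0.26 (limma's adjusted p = 0.661). The remaining receptors, both listed beside the 10 genes, were Notch3, at 6.83 ± 0.10 and 6.91 ± 0.13 (SD, n = 3), and Notch4, at means of 6.32 and 6.40, and neither passed limma's test (0 of 2, also at an unadjusted p below 0.05).

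Nrarp, an RBPJ-dependent target whose product restrains Notch signalling, had the largest difference of the 10 genes. It read 8.77, 8.53 and 8.28 in control mice and 6.49, 7.26 and 6.22 in YAP Tg mice, with 1.02 between the groups. The change was -1.87 (SE 0.28, limma's adjusted p = 0.00926), from 8.53 ± 0.25 to 6.65 ± 0.54 (SD, n = 3), or 3.66-fold lower. It lost its call without control mouse 1 (adjusted p = 0.0539) or control mouse 2 (0.0518), and ranged from 0.00144 to 0.0539 over all settings.

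Hes1, the repressor through which Notch keeps Atoh1 off, read 8.92, 8.87 and 8.90 in control mice and 7.96, 8.68 and 8.16 in YAP Tg mice. Each YAP Tg value was below each control value, but mouse 2 stood 0.22 below the control mean where mice 1 and 3 stood 0.93 and 0.73 below it. The difference of -0.63 (SE 0.18) did not pass limma's test (adjusted p = 0.0718). Without YAP Tg mouse 2 it was -0.83 and passed (adjusted p = 0.0023, within a range of 0.0023 to 0.213 over all settings), in a fit that called 33.6% of all genes.

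Lfng, a fringe glycosyltransferase that tunes which ligands a Notch receptor answers to, read 8.18, 8.17 and 8.18 in control mice and 8.66, 8.57 and 8.77 in YAP Tg mice. It rose by 0.50 (SE 0.08, limma's adjusted p = 0.0096), or 1.41-fold, and all 3 YAP Tg values lay above the controls, by a gap of 0.40. Without control mouse 1, 2 or 3 its adjusted p was 0.0553, 0.0528 or 0.0506 (range over all settings 0.00278 to 0.0553). Dtx1, a Deltex ubiquitin ligase that binds the receptor's intracellular part and is itself induced by Notch in lymphocytes, read 8.26, 8.13 and 8.29 in control mice and 8.79, 8.92 and 8.80 in YAP Tg mice. It rose by 0.61 (SE 0.08, limma's adjusted p = 0.0059), or 1.53-fold, with a gap of 0.50 between the groups, and kept its call under all 16 alternatives.

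Of those among the 10 genes that are known as outputs of Notch, Nrarp fell and Lfng and Dtx1 rose, while Hes1 did not pass the test. The outputs among the 10 thus did not share a direction. Of genes outside the 10 that are named below as targets, Olfm4 fell (-3.19), and Hes5 and Hey1 did not pass the test. Whether Lfng is an output in crypts was not tested. Dtx1 is known as an output in lymphocytes, whose markers were also higher on these arrays. Which cells gave its signal was not tested. Relative to the control mean, the average of Hes1 and Nrarp was -1.48, -0.74 and -1.52 in YAP Tg mice 1, 2 and 3, and that of Lfng and Dtx1 was 0.53, 0.55 and 0.59. These pairs were formed with the directions known, so the opposite signs of their averages are a description and no test. YAP Tg mouse 2 lay nearest to the control mean for 7 of the 10 genes, among them Jag1, Hes1 and Nrarp. For the other 3 genes, Dll4, Jag2 and Dtx1, mouse 2 lay farthest from it. YAP Tg mice spread more widely than controls for 8 of the 10 genes. Neither count was set against its share of all genes. Across all genes the array of YAP Tg mouse 2 was also the closest of the YAP Tg arrays to each control array. Its Pearson's r with control mouse 1 was 0.972, against 0.945 and 0.965 for YAP Tg mice 1 and 3. YAP Tg arrays were also less alike than control arrays across all genes. These counts therefore do not set the Notch genes apart from other genes.

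The stretches of 250 bases before the start of the gene are shown for Nrarp and Dll4, which fell, and Lfng, which rose, because Lfng and Nrarp are both known as Notch outputs and moved apart. Sequences are from RefSeq, build GRCm38.p6, 5′ to 3′ on the gene's strand, and the sources used here do not name the array's build. Capitals mark, on either strand, the RBPJ core TGGGAA, the TEAD core CATTCC, the E-box CACGTG and the N-box form CACNAG, the last pair being forms known to be bound by Hes or Hey repressors. Nrarp spans chr2:25180508-25180757, Dll4 chr2:119325534-119325783 and Lfng chr5:140607091-140607340, all on the plus strand.
Nrarp: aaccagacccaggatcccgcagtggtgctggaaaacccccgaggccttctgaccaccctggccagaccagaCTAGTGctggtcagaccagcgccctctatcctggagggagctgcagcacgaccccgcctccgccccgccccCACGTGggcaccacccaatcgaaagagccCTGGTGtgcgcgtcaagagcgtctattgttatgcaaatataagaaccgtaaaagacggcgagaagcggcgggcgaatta
Dll4: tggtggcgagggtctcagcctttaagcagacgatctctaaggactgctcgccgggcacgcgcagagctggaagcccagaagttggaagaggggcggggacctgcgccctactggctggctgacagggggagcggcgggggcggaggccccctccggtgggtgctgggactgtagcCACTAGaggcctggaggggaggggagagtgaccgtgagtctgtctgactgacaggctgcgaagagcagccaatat
Lfng: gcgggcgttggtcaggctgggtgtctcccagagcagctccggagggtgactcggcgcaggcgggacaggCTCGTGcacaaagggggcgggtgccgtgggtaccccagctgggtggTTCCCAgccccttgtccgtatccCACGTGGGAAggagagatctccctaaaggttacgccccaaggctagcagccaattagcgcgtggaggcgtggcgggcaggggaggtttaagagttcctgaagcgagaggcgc

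Such windows outside the gene were available for 7 of the members (not used here: Hes1, Jag2 and Dtx1). Among the 7, Lfng alone held the RBPJ core, at 135 to 130 bases (as TTCCCA) and at 108 to 103 bases before the start. The second of these overlaps an E-box at 112 to 107 bases. The core stands in 21.6% of 19827 such windows of mouse genes, so 1 in 7 is near that share. Nrarp held an E-box at 108 to 103 bases and N-box forms at 179 to 174 and 79 to 74 bases, and Dll4 an N-box form at 75 to 70 bases. The E-box was in 2 of the 7 windows (Lfng and Nrarp) against 5.57% of all, the N-box form in 5 of 7 against 36.8%, and the TEAD core in 1 of 7 (Notch1, with 2 matches) against 13.1%. A match of letters is a description of the sequence and not a binding site.

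Of 60 other Notch pathway genes measured (63 listed), 8 rose and 3 fell by limma's adjusted p, which is 18.3% and close to the 14.2% of all genes. Their median difference was 0.03, the same as that of all genes to 2 decimals, and the median size of the difference was 0.20. The groups did not overlap for 14 higher and 9 lower genes of the 60, against the 16.5% and 17.0% of all genes. The 11 called became 5 without YAP Tg mouse 1 or control mouse 1, 4 without YAP Tg mouse 3, 3 without control mouse 2 or 3, and 24 without YAP Tg mouse 2, where 33.6% of all genes were called. Rfng, Rbpj, Hes5 and Hey1 lay outside the naming rule and were added after their values were seen.

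Of 4 genes listed under fringe and glycosylation, a list that leaves out Eogt, 1 rose. This was Mfng, a second fringe enzyme, by 0.64 (SE 0.06, limma's adjusted p = 0.00256), from 6.34, 6.41 and 6.42 in control mice to 7.01, 7.01 and 7.07 in YAP Tg mice. Rfng, the third fringe, differed by -0.48 and did not pass the test (adjusted p = 0.12). Without YAP Tg mouse 2 the glycosylation genes Pofut1 (-0.37, adjusted p = 0.0304) and Poglut1 (-0.57, 0.00745) were also called, both lower. Of 9 measured genes of the proteases that mature and cut Notch, 4 rose and none fell. Aph1b and Aph1c, gamma-secretase subunits so alike that their probe sets may cross-hybridise, rose by 0.63 (SE 0.10, adjusted p = 0.0122) and 0.65 (SE 0.13, adjusted p = 0.0209). The 4 became 1 without YAP Tg mouse 1 or 3 or control mouse 2 or 3 and none without control mouse 1, and without YAP Tg mouse 2 they were 4 higher and 1 lower (Psen2, -0.50, adjusted p = 0.0264). The others of these 4, named after their values were seen, were the convertase Furin (0.65) and the gamma-secretase subunit Ncstn (0.37).

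None of 5 genes listed as ligands or ligand-like and none of 5 genes for ligand ubiquitination passed limma's adjusted test, with 1 and 2 past an unadjusted p below 0.05. Among those listed as ligands, Eogt is a glycosylation enzyme and not a ligand (0.24, limma's adjusted p = 0.332). The smallest p in those roles belonged to Dlk2, a non-canonical ligand (0.35, limma's adjusted p = 0.103), and Mib2, a Mindbomb ligase that activates ligands (0.40, adjusted p = 0.0712). Without YAP Tg mouse 2, 1 ligand was called higher, and of the ligase genes 2 were called higher and Mib1 lower (-0.53, adjusted p = 0.0201). Of 9 receptor regulators 2 rose. Itch, a ubiquitin ligase that removes Notch, rose by 0.59 (SE 0.10, adjusted p = 0.0156), and Numbl, a relative of the Notch inhibitor Numb, by 0.48 (SE 0.09, adjusted p = 0.0177). Numbl was not called without YAP Tg mouse 1 (0.0504) or 3 (0.0583) or control mouse 2 (0.0832) or 3 (0.0796), and Itch not without YAP Tg mouse 3 (0.0577) or control mouse 2 (0.0708) or 3 (0.0606). Without YAP Tg mouse 2 there were 2 higher and 2 lower, the ligases Nedd4 (-0.93, adjusted p = 0.0154) and Dtx4 (-0.79, 0.00532).

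In the nucleus, Rbpj itself differed by 0.02 (limma's adjusted p = 0.93), and 1 of 9 genes of its activating complex fell. This was the Mastermind coactivator Maml3, at 7.24, 7.06 and 7.12 in control mice and 6.38, 6.43 and 6.50 in YAP Tg mice, a change of -0.70 (SE 0.08, adjusted p = 0.0037). Maml3 kept its call with any 1 array left out (adjusted p up to 0.0273), as did Mfng (up to 0.0219). Of 9 corepressors 1 fell, Tle1, a Groucho-family partner of Hes proteins (-0.71, SE 0.15, adjusted p = 0.0305), which was called in 1 of the 6 fits with an array left out, the fit without YAP Tg mouse 2. That fit, which called 33.6% of all genes, had 1 gene of the activating complex higher and 3 lower, among them Kat2a (-1.08, limma's adjusted p = 0.00167). The corepressor Ctbp1 was also lower in it (-0.42, adjusted p = 0.0427).

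Of 8 further Hes and Hey genes, Hes6, which opposes Hes1 and is found in secretory progenitors, fell by 0.60 on the log2 scale (SE 0.12, limma's adjusted p = 0.0233). Heyl, a Hey repressor, rose by 0.49 (SE 0.11, adjusted p = 0.0354). Hes6 lost its call without YAP Tg mouse 1 (0.0657) or control mouse 2 (0.103) or 3 (0.0931), and Heyl without YAP Tg mouse 3 (0.0674) or control mouse 1 (0.118), 2 (0.139) or 3 (0.108). Hes5 and Hey1, canonical Notch targets, differed by 0.19 and 0.03 and did not pass the test (adjusted p = 0.27 and 0.84).

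**Figure D3:**
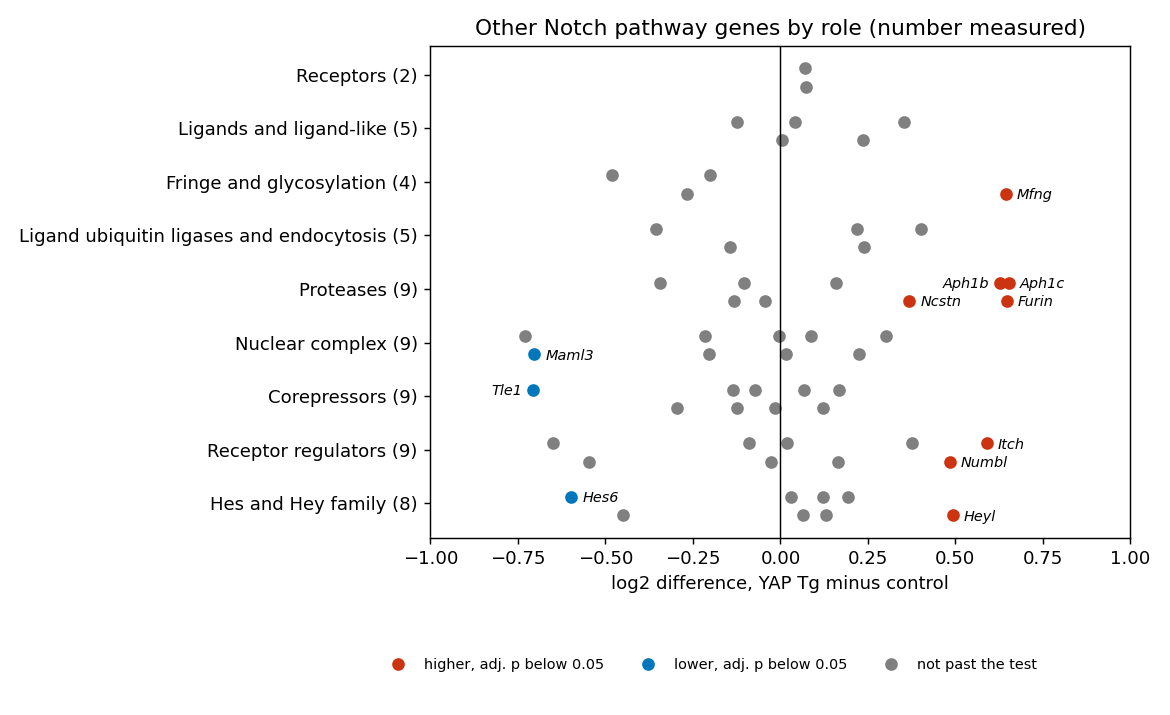
Log2 difference (horizontal axis, YAP Tg minus control) of the 60 other Notch pathway genes, 1 point per gene, grouped by role (vertical axis, number measured); red points rose and blue points fell at an adjusted p below 0.05, and grey points did not pass. The called genes lie between -0.71 and 0.65, inside the range of the 10 genes described first. Eogt, a glycosylation enzyme, is drawn with the ligands, as it was listed.

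Of 8 genes of the secretory and crypt base lineages that Notch separates, 6 fell in the same mice, where 6.7% of all genes fell: Atoh1, Neurog3, Spdef, Olfm4, Lgr5 and Ascl2. The others did not pass limma's test: Gfi1, a secretory transcription factor, differed by 0.15 (adjusted p = 0.277) and Sox9, a factor of crypt base and Paneth cells, by -0.68 (adjusted p = 0.122). Atoh1 read 9.93, 10.10 and 9.72 in control mice and 7.49, 7.53 and 8.87 in YAP Tg mice (-1.95, SE 0.38, limma's adjusted p = 0.0215), and was not called without YAP Tg mouse 1 (0.0623) or control mouse 1 (0.0940), 2 (0.0983) or 3 (0.0814). Olfm4, known as a Notch target at the crypt base, read 12.87, 13.00 and 13.02 in control mice and 8.52, 10.23 and 10.57 in YAP Tg mice (-3.19, SE 0.51, adjusted p = 0.0116; 0.0599, 0.0611 and 0.0637 without control mouse 1, 2 or 3). Spdef (0.0510) and Lgr5 (0.0591) were not called without control mouse 3.

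Other cell types carry some of these genes, and their markers were measured on the same arrays. Endothelium uses Dll4, Jag1, Notch1 and Notch4: none of its 13 markers passed limma's adjusted test (2 at an unadjusted p below 0.05, Pecam1 at 0.24 and Esam at -0.42), and their summed signal was 9.63 to 9.77 on the log2 scale in control and 9.70 to 9.83 in YAP Tg crypts. Smooth muscle markers, 0 of 7 called by limma (0 at an unadjusted p below 0.05), summed to 8.62 to 8.71 and 8.63 to 8.81. Both lists were dim: endothelial signals lay at 4.04 to 6.996 and those of smooth muscle at 4.71 to 6.59, and 3 endothelial markers and 1 of smooth muscle were, on at least 1 array, below the median of the low-numbered probe sets.

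All 8 markers of T cells and intraepithelial lymphocytes were higher, by 1.197 to 1.72, and 7 or 8 were with any 1 array left out; their summed log2 signal was 13.21 to 13.48 in control and 14.57 to 14.88 in YAP Tg crypts. Of 6 myeloid markers Csf1r (0.85) and Cd68 (0.61) rose and Itgam (-0.43) fell, with sums of 10.07 to 10.49 and 9.96 to 10.22; Csf1r was called with any 1 array left out, and Cd68 and Itgam in 2 of those 6 fits each.

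Markers of differentiated cells were lower in part, among them those of secretory cells, which carry Dll1 and Dll4, and of absorptive enterocytes. Of 6 enterocyte markers Fabp2 (-1.49) and Fabp1 (-1.74), fatty acid binding proteins, fell and none rose (4 fell without YAP Tg mouse 3, 1 without control mouse 3, and 1 rose without YAP Tg mouse 2), with sums of 15.51 to 15.54 in control and 14.93 to 15.27 in YAP Tg crypts. Of 6 Paneth cell markers 3 fell and none rose (4 without YAP Tg mouse 2, 2 without YAP Tg mouse 1 or control mouse 2, and 1 without YAP Tg mouse 3 or control mouse 1 or 3), with sums of 14.10 to 14.53 in control and 13.71 to 14.09 in YAP Tg crypts, and of 6 goblet cell markers 2 fell (Agr2 and Spdef; 1 without control mouse 3), with sums of 15.0003 to 15.01 and 14.42 to 14.87. Of 5 enteroendocrine markers Neurog3 and Chgb fell, and Chga did not pass (-0.16, limma's adjusted p = 0.419). Chgb was called with no array other than YAP Tg mouse 2 or control mouse 2 left out, and 1 marker rose without YAP Tg mouse 2. Neurog3, a factor of endocrine progenitors, and Spdef were already counted among the lineage genes above. Of 3 tuft cell markers none was called (list median 0.42), and 2 rose without YAP Tg mouse 2. Tuft sums were 9.69 to 9.93 in control and 9.47 to 10.62 in YAP Tg crypts. The lowest signals in these lists were 8.42 for lymphocytes, 7.85 for enterocytes, 7.15 for Paneth and 7.69 for goblet cells, and 4.48 for myeloid cells. The part of these cell types in the differences of the Notch genes was not tested.

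**Figure D4:**
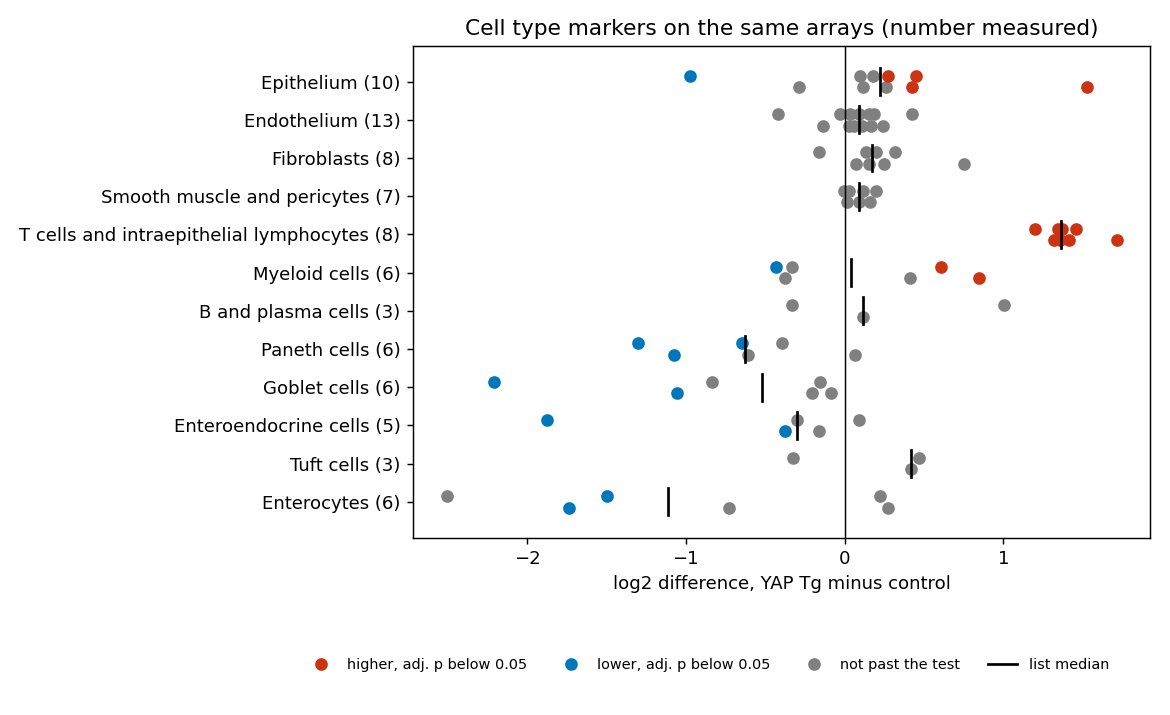
Log2 difference (horizontal axis, YAP Tg minus control) of cell type markers on the same arrays, 1 point per gene, by cell type (vertical axis, number measured), with the list median as a black line; red and blue points passed limma's adjusted test. The 8 lymphocyte markers lie at 1.197 to 1.72, and no endothelial or smooth muscle marker is coloured.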

How the data were processed

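The log2 signals of 35556 probe sets on 6 arrays were used as the authors deposited them; the submitters' processing notes name Affymetrix Expression Console, version 1.1. That the scale is log2 follows from the values (1.99 to 14.4). The sources used here do not give the background correction, normalization or probe summary, and an all-gene shift would be hidden if arrays were scaled to each other. Probe sets numbered below the first annotated one (6617) were treated as array controls and left out. Of the other 28939, those with exactly 1 symbol (21789) gave 19938 genes, by the probe set with the highest mean. Groups follow the sample titles, and samples were treated as separate mice; if they were not, p-values measure only the spread between these samples. Differences were tested two-sided with limma (version 3.58.1 in R 4.3.3, lmFit and eBayes, no covariate, adjusted over all genes). A check on simulated data used independent genes with the same spread in both groups. It therefore does not cover the wider spread of the YAP Tg mice. Having 3 arrays a group limits the precision. Marker sums are the log2 of summed linear signals. The 10 genes, the lists and the naming rule (all members; per pathway role up to 2 genes past the test with the smallest p, or else 1) were chosen with earlier results of these data known. Listed genes without a probe set of 1 symbol were not analysed here.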

Additional observations from a re-analysis of the deposited data

How the results depend on the processing

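The 10 Notch genes were fitted under 16 alternatives, chosen with the design. Of 160 values, 139 kept direction and side of the threshold, 17 kept direction but lost the call, 4 (all Hes1) gained it and 0 turned. Part of this tally was fixed in advance. The replicate block, the filters on signal, the trended prior, the mean of probe sets, the adjustment over all probe sets and the threshold of 0.10 leave each difference as it was. Under these no direction could turn, and the looser threshold could not lose a call. Quantile normalization moved all 10 differences upward and left the calls as they were. Among the larger shifts, Dll1 went from -0.60 to -0.48, Hes1 from -0.63 to -0.51 and Notch1 from -0.13 to -0.02. Lfng went from 0.50 to 0.61 and Dtx1 from 0.61 to 0.73. With 1 array left out, 2 to 8 of the 10 genes were called (1 to 3 higher, 1 to 5 lower), 3 to 24 of 60 other pathway genes (2 to 12 higher, 1 to 12 lower) and 1043 to 6691 of all genes (669 to 2802 higher, 369 to 3889 lower); the largest counts came without YAP Tg mouse 2. Same-numbered mice of the groups did not deviate together (r of deviations -0.13, 0.01 and 0.10 for numbers 1, 2 and 3; 1 of 3 YAP Tg arrays was closest to its own number), so the numbers were not taken as pairs. With the replicate number as a block, 5 of the 10 genes were called, 2 of them lower (Dll1 at an adjusted p of 0.0523 and Jag1 at 0.0554 were not), with 4 other pathway genes higher, and 1702 of all genes, 975 higher and 727 lower. With array weights 5940 genes were called, 2459 higher and 3481 lower, and 18 other pathway genes, 8 of them lower. At a threshold of 0.10, 2101 genes were lower. Background correction could not be varied, and the cause of these shifts was not tested.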
